A study of Mus musculus with 6 samples.

Results

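The genes described here are Txnip, the Arrdc genes of the alpha-arrestin family (Arrdc1, Arrdc2, Arrdc3 and Arrdc4), the Mondo transcription factor genes Mlxip and Mlxipl, their partner Mlx, and Txn1, the thioredoxin that Txnip binds. They are 9 genes, 8 of them among the 19057 genes named on the array, and they were chosen by the high signals of Txnip and Arrdc4 on the arrays of blastocysts held in the oviduct, with no set threshold. Their differences between oviduct embryos and either uterus group are therefore a description, with no test, and the genes are tested between the ICI uterus and uterus groups alone. Arrdc3 had no named probe here and was not analysed, and 19 probes carried the name of one of the other genes. On every one of the 6 arrays 9 of these probes, for 7 genes, were above background, which means a detection p-value under 0.05 against negative control beads. The other 10 probes missed the filter of both arrays of at least 1 group, and 6 of them were above background on no array.

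Alpha-arrestins are membrane trafficking adaptors that carry an arrestin fold and recruit NEDD4-family ubiquitin ligases to cargo proteins. Txnip binds reduced thioredoxin and limits glucose uptake by drawing glucose transporters off the cell surface, and Arrdc4 is its close relative with a like effect on glucose uptake. MondoA (Mlxip) and ChREBP (Mlxipl) pair with Mlx, respond to phosphorylated hexoses and bind carbohydrate response elements, and Txnip and Arrdc4 are among the best known targets of this system in mammalian cells.

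The blastocysts came from superovulated CD-1 mice, an outbred stock, on 6 single-colour Illumina bead arrays of 2 pools per group, each pool of 100 to 120 embryos. All females received 5 IU of PMSG (a gonadotropin that drives follicle growth), 5 IU of hCG (which triggers ovulation) 44 h later, and were mated, with the plug morning as dpc 1. The 3 groups were embryos recovered at dpc 4 from ligated oviducts (oviduct), uterine embryos of mice given 0.5 µg of a compound called ICI in the labels (ICI uterus), and uterine embryos of pregnant mice without that compound (uterus). The labels name estrogen regulation of preimplantation embryos as the subject, call the embryos day 3.5, and attach 70 h after hCG either to the ICI dose or to flushing. The 70 h is given for both uterus groups and not for the oviduct group, so whether collection times matched is not known. Nothing says that replicate pools came from separate animals, so p-values measure the spread between these pools, which may be technical. Each pool mixes all lineages of the embryo, so fewer cells of a type and less RNA per cell cannot be told apart.

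Each array had 16525 to 18182 of its 45281 probes above background, and 17677 probes entered the fit. The correlation of replicate arrays across probes was 0.960 for oviduct, 0.991 for ICI uterus and 0.988 for uterus embryos, and an oviduct array correlated with an array of another group at up to 0.968. The oviduct pools thus stood apart from each other, and values are given below for each of them. Blastocyst markers were present on all arrays: of 12 trophectoderm markers 10 or 11 were above background, and of 12 inner cell mass and epiblast markers 11 or 12 were. Log2 signals here are background-corrected, quantile-normalized values, and levels are compared between groups for 1 probe at a time, not between probes.

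Because Txnip and Arrdc4 were high on the same arrays and are known targets of the same regulators, their promoter sequences are shown first, from RefSeq for mouse build GRCm38.p6. Each runs from 250 bases before the annotated start to 50 bases after it and is written 5′ to 3′ on the strand of the gene. The Txnip window is chr3:96557707-96558006 on the plus strand, and the Arrdc4 window is chr7:68749189-68749488 on the minus strand. Capitals mark the matches found by a search of both strands for the E-box CACGTG, the carbohydrate response element in a loose form (CACGNGNNNNNCNCGNG) and a strict form (CACGTGNNNNNCACGTG), the CCAAT box bound by NF-Y, and the FOXO element TGTTTAC. In capitals, ATTGG and GTAAACA are the CCAAT box and the FOXO element read on the opposite strand.
Txnip: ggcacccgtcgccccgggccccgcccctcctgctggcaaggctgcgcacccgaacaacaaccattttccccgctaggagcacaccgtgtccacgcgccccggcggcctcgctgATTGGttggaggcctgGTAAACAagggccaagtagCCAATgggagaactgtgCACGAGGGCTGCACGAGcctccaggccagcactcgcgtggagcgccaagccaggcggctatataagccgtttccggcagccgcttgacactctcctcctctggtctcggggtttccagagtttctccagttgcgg
Arrdc4: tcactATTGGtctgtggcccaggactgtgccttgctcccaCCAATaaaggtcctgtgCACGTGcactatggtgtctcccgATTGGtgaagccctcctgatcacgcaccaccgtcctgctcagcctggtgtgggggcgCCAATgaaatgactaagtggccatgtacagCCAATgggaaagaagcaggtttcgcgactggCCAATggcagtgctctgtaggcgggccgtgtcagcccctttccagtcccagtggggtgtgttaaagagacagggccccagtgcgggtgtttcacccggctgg

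The Txnip window held the loose carbohydrate response element from base -85 to base -69, where a pair of E-box-like parts flank 5 bases (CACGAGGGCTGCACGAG). It also held CCAAT boxes from -137 to -133 and from -102 to -98, and a FOXO element from -121 to -115 on the opposite strand. The loose element was found in 120 of 32851 promoter windows of the same length (0.365%), and among the 12 windows of the 9 genes in the Txnip window alone. The Arrdc4 window held an E-box from -193 to -188 and 6 CCAAT boxes, none of them overlapping, and no match to the loose element. An E-box was present in 7.15% of all windows, and 6 or more CCAAT boxes in 0.0792% (26 windows). The strict element was found in 0 windows. A CCAAT box was common, with at least 1 in 37.4% of windows and at least 2 in 11.7%, and the FOXO element stood in 3.65%. Mlx and 1 of 2 annotated starts of Mlxipl had an E-box each, while Arrdc1 and Txn1 had no match to any of these letters. Such matches describe the letters of the window and not a bound site.

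**Figure D1:**
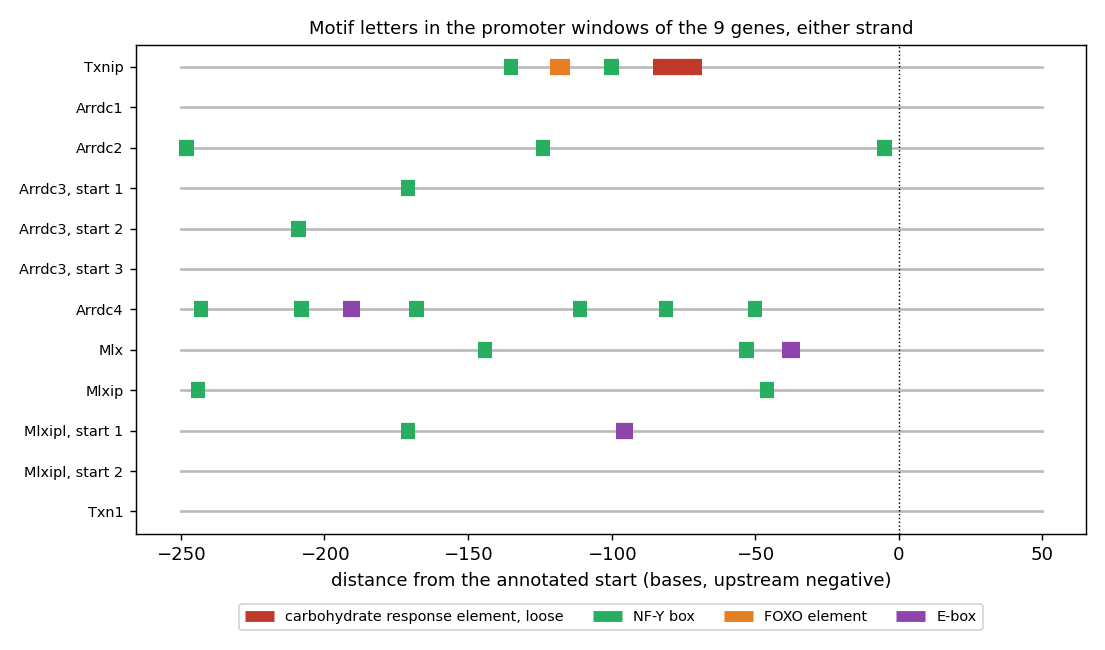
Motif matches on either strand in the 12 promoter windows of the 9 genes, drawn as distance in bases from the annotated start (dotted line; upstream is negative), with NF-Y box standing for the CCAAT box. The long block near -85 to -69 marks the one loose carbohydrate response element, in Txnip, and the row of Arrdc4 carries 6 NF-Y boxes and 1 E-box.

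Txnip was measured by 2 probes that are annotated to different transcripts of the gene, and both were higher on each oviduct array than on any other array. For the brighter probe (ILMN_1213609), raw signals were 1479 and 1574 in oviduct embryos, with standard errors over beads of 31.8 and 27.5. On the same scale they were 260.2 and 176.5 in ICI uterus embryos, and 171.8 and 344.4 in uterus embryos. The lowest oviduct signal was thus 5.69 times the highest ICI uterus signal and 4.29 times the highest uterus signal. In log2 units the probe had 9.97 and 10.63 in the oviduct pools, 7.71 and 7.10 in the ICI uterus pools and 7.0 and 8.31 in the uterus pools. The 2 uterus pools differed more from each other than the oviduct pools did, and the ICI uterus values lay between them.

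The mean log2 signal of this Txnip probe was 10.30 ± 0.46 in oviduct embryos and 7.66 ± 0.93 in uterus embryos (SD, n = 2 each), a log2 difference of 2.65 (SE 0.46, 95% interval 1.55 to 3.74), or 6.26-fold. Ranked from the highest difference downward it was number 3 of 17677 probes. Against ICI uterus embryos, at 7.41 ± 0.43, the log2 difference was 2.89 (SE 0.46, interval 1.80 to 3.99), or 7.44-fold. These comparisons share the oviduct arrays. The size of the first one depended on the uterus pools, with 1.98 without uterus replicate 1 and 3.30 without uterus replicate 2. Uterus replicate 2, the higher pool for Txnip, also carried more oocyte transcript: Gdf9, an oocyte growth factor gene, had a log2 signal of 11.12 there and 7.07 on uterus replicate 1. The part of that in the Txnip value was not tested.

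The other Txnip probe (ILMN_3112873) showed the same arrangement of arrays. It read 784.04 and 758.9 in oviduct embryos, 167.9 and 112.2 in ICI uterus embryos, and 129.9 and 184.8 in uterus embryos. Its log2 difference was 2.50 (SE 0.38) for oviduct minus uterus and 2.87 (SE 0.38) for oviduct minus ICI uterus. Across the 6 arrays the log2 gap between the 2 probes stayed between 0.64 and 1.17, and they ranked the pools alike except for the lowest pair, uterus replicate 1 and ICI uterus replicate 2 (r = 0.99 over 6 arrays that fall into the same groups).

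Arrdc4 had a single probe (ILMN_2648967), and its replicates lay closer together than those of Txnip. Raw signals were 869.3 and 620.4 in oviduct embryos (standard errors over beads 14.1 and 19.1), 178.8 and 161.1 in ICI uterus embryos, and 159.5 and 164.2 in uterus embryos. After normalization the log2 signal was 9.18 and 9.16 in the oviduct pools, 6.95 and 6.90 in the ICI uterus pools and 6.84 and 6.89 in the uterus pools. The oviduct pools were alike and far above the other 4 pools, which spanned a narrow range.

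The log2 difference of Arrdc4 was 2.31 (SE 0.17, interval 1.91 to 2.71), or 4.96-fold, for oviduct minus uterus, with means of 9.17 ± 0.01 and 6.86 ± 0.04 (SD, n = 2 each). For oviduct minus ICI uterus it was 2.25 (SE 0.17), or 4.74-fold. The probe ranked 9 from the top in the first comparison and 27 in the second. The difference was as large on either oviduct array alone: 2.35 without oviduct replicate 2 and 2.27 without oviduct replicate 1.

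Transcripts of other cell types also differed between the pools, and the oviduct arrays differed in them. Ovgp1, which encodes a secreted protein of the oviduct, had log2 signals of 6.52 and 8.35 in the oviduct pools, 5.28 and 5.43 in the ICI uterus pools, and 4.79 and 4.68 in the uterus pools. Of 10 oviduct epithelium markers 2 and 4 were above background on the oviduct arrays, 2 and 3 on the ICI uterus arrays, and 0 and 1 on the uterus arrays. The summed raw signal of that list was 949.9 and 1150 in oviduct embryos, 830.7 and 821.3 in ICI uterus embryos, and 781.8 and 759.2 in uterus embryos. This sum and those below are not background-corrected and include markers at background. The median raw signal of all probes was 88.0 and 84.3 on the oviduct arrays, against 79.2 to 81.1 on the others. Of the other markers of that list, each at its brightest probe, Cfap126 and Tekt1 were above background on oviduct replicate 2 alone. Epcam had log2 signals of 5.29 and 5.19 in oviduct, 5.80 and 5.70 in ICI uterus, and 4.92 and 5.06 in uterus pools. It was thus highest in the ICI uterus pools. The log2 difference of Epcam was 0.26 (SE 0.17) for oviduct minus uterus and -0.51 (SE 0.17) for oviduct minus ICI uterus. The ciliated cell factor gene Foxj1 was above background on ICI uterus replicate 2 alone. The epithelial factor gene Pax8 was above background on no array, and neither were Dnah5, Sprr2f, Krt5 and Cd24a. Stroma and muscle markers summed to 963.6 and 1240 in oviduct embryos, against 803.6 to 871.2 on the other arrays. Of these 10 markers 3 and 5 were above background in oviduct, 2 and 3 in ICI uterus, and 3 and 4 in uterus embryos. Dcn, a gene of that list, read 150.8 and 384.6 in oviduct embryos and 65.5 to 81.0 on the other arrays. Pdgfrb was above background on the uterus arrays alone. Of 4 such markers in the fit, 3 lay above 0 and 1 below for oviduct minus uterus, and 2 and 2 for oviduct minus ICI uterus. Blood and immune markers summed to 799 and 2737 in oviduct embryos, 643.9 and 1169 in ICI uterus embryos, and 1753 and 1388 in uterus embryos, and of 8 such markers 3 and 6 were above background in oviduct, 2 and 5 in ICI uterus, and 3 and 3 in uterus embryos. Hba-a1, a haemoglobin gene of that list, had log2 signals of 5.79 and 10.73 in the oviduct pools, 5.58 and 6.89 in the ICI uterus pools, and 10.18 and 8.67 in the uterus pools. Lyz2, a macrophage lysozyme gene named after its values were seen, had 5.87 and 7.75 in the oviduct pools, 4.5 and 5.23 in the ICI uterus pools, and 4.61 and 4.42 in the uterus pools, where it was not above background. These values are from 1 of 3 Lyz2 probes, and the counts above used another, not above background on oviduct replicate 1. Of 4 blood and immune markers in the fit, 2 had a log2 difference above 0 and 2 below for oviduct minus uterus. For oviduct minus ICI uterus 3 lay above 0 and 1 below. In log2 units Arrdc4 was alike on the oviduct arrays, and both Txnip probes were higher on oviduct replicate 2. The part of these transcripts in the Txnip and Arrdc4 values was not tested.

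Embryo lineage markers differed between the pools too. The summed raw signal of the inner cell mass and epiblast markers was 27540 and 27246 in oviduct embryos, 21194 and 17781 in ICI uterus embryos, and 19564 and 17145 in uterus embryos, while the mean raw signal of all probes was 488 and 381 in oviduct, 372 and 344 in ICI uterus, and 375 and 356 in uterus embryos. After quantile normalization the median log2 difference of these 12 markers was 0.23 for oviduct minus uterus, with 9 above 0, and -0.09 for oviduct minus ICI uterus, with 6 above 0 and 6 below. The trophectoderm markers summed to 47776 and 29872 in oviduct embryos, 40453 and 37920 in ICI uterus embryos, and 45456 and 40128 in uterus embryos, where the oviduct pools differed most from each other. After quantile normalization 10 of 11 trophectoderm markers in the fit had a log2 difference below 0 for oviduct minus uterus, with a median of -0.90, and 6 of 10 primitive endoderm markers did, with a median of -0.38. For oviduct minus ICI uterus 10 of 11 trophectoderm markers lay below 0 (median -0.64), as did 7 of 10 primitive endoderm markers (median -0.37). The part of lineage composition in the Txnip and Arrdc4 differences was not tested.

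**Figure D2:**
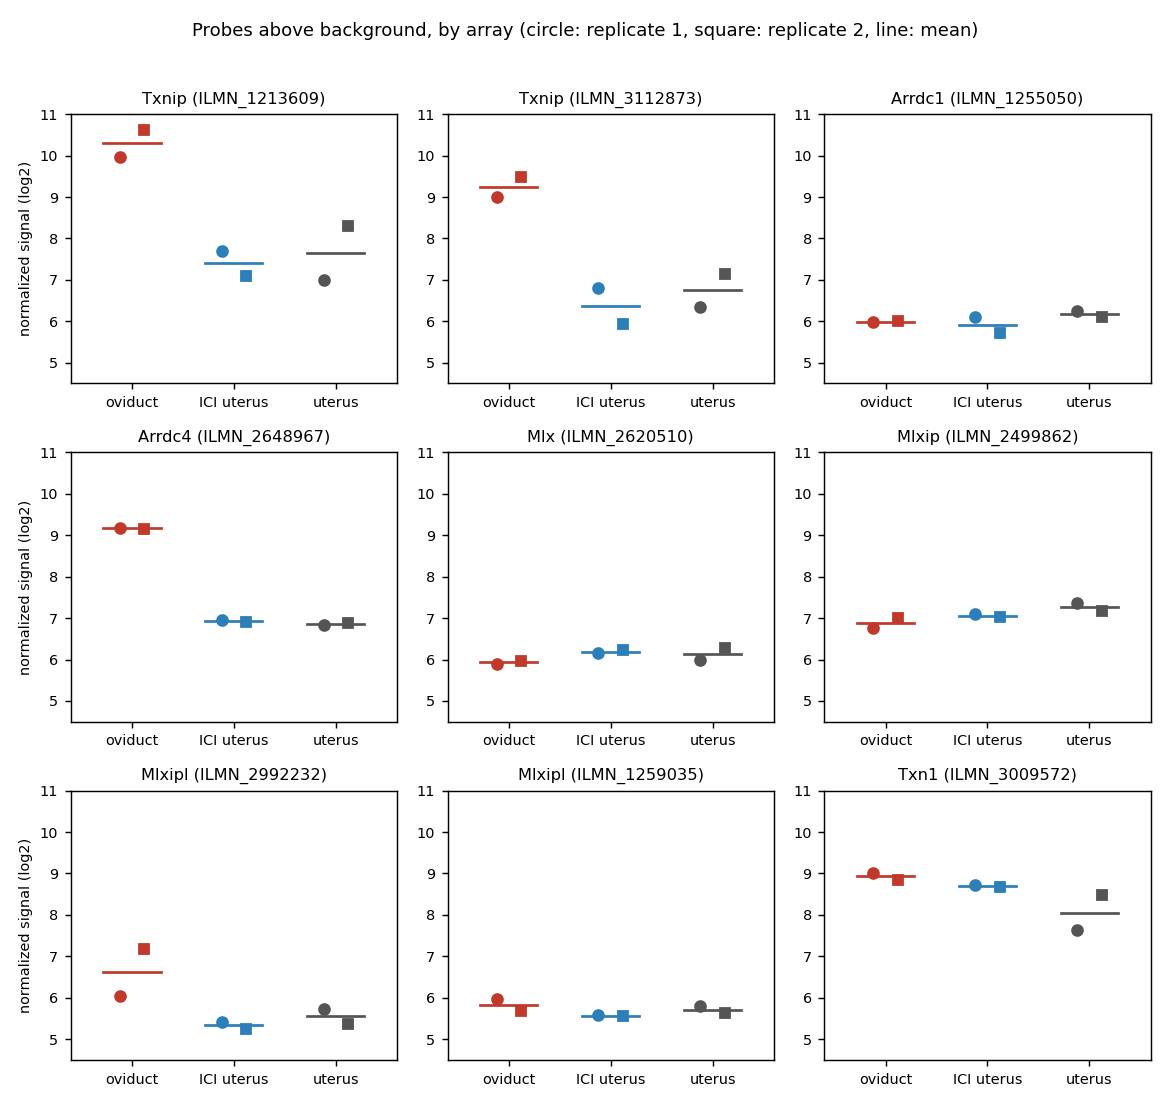
Normalized log2 signal of the 9 probes above background, 1 panel per probe, for oviduct, ICI uterus and uterus embryos; circles are replicate 1, squares replicate 2, and lines group means of 2 arrays. Both Txnip probes and Arrdc4 stand apart on the oviduct arrays, while Arrdc1, Mlx and Mlxip stay within a narrow band.

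Among the remaining Arrdc genes only Arrdc1 was in the fit, and it did not show the pattern of Txnip and Arrdc4. Arrdc1, an alpha-arrestin of the plasma membrane known for vesicle budding, read 140.5 and 132.03 in oviduct embryos, 125.5 and 104.8 in ICI uterus embryos and 125.2 and 120.4 in uterus embryos (raw signal). Its log2 difference was -0.19 (SE 0.20) for oviduct minus uterus, 0.11 with median scaling, and 0.08 (SE 0.20) for oviduct minus ICI uterus, 0.32 with median scaling and -0.11 without ICI uterus replicate 2. Both intervals included 0, and a change of the size seen for Arrdc4 lay outside them (upper bounds 0.29 and 0.56). Arrdc2 was near background: the brighter of its 2 probes read 89.4 and 106.6 in oviduct embryos, 88.2 and 80.99 in ICI uterus embryos and 79.8 and 88.1 in uterus embryos. It was above background on oviduct replicate 2 and uterus replicate 2 only, and its other probe on oviduct replicate 2 only, so no fold is given.

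Of the Mondo regulators, Mlxip, which encodes MondoA, had 1 probe above background of 5. That probe (ILMN_2499862), which the annotation links to no transcript, read 202.3 and 197.6 in oviduct embryos, 192.2 and 169.5 in ICI uterus embryos and 204.9 and 188.8 in uterus embryos. In log2 units it had 6.76 and 6.99 in the oviduct pools, 7.11 and 7.01 in the ICI uterus pools and 7.37 and 7.18 in the uterus pools. The oviduct values were thus the lowest. The log2 difference was -0.40 (SE 0.19, interval -0.84 to 0.05) for oviduct minus uterus, -0.098 with median scaling, and -0.19 (SE 0.19) for oviduct minus ICI uterus, 0.09 with median scaling.

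Mlx, the obligate partner of the Mondo proteins, had 1 probe in the fit of 3. Its raw signals were 135.1 and 130.1 in oviduct embryos, 128.2 and 123.5 in ICI uterus embryos and 114.4 and 127.8 in uterus embryos. On the log2 scale the difference was -0.20 (SE 0.19) for oviduct minus uterus, 0.08 with median scaling, and -0.26 (SE 0.19) for oviduct minus ICI uterus, -0.024 with median scaling. Both intervals included 0. A further Mlx probe was above background on oviduct replicate 1, ICI uterus replicate 1 and uterus replicate 2, which follows no group.

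Mlxipl, which encodes ChREBP, the Mondo factor of liver and fat, had 2 probes above background that disagreed. The probe ILMN_2992232 read 144.8 and 215.4 in oviduct embryos, 100.5 and 92.5 in ICI uterus embryos and 105.8 and 95.8 in uterus embryos. On oviduct replicate 2 its standard error over 20 beads was 19.4, against 6.18 on oviduct replicate 1. Its log2 difference for oviduct minus uterus was 1.07 (SE 0.37, interval 0.19 to 1.94), but 0.50 without oviduct replicate 2 and 1.60 without oviduct replicate 1. For oviduct minus ICI uterus it was 1.28 (SE 0.37), and 0.63 with the authors' log2 values. The probe ILMN_1259035 read 140.4 and 117.7 in oviduct embryos, 104.9 and 100.4 in ICI uterus embryos and 108.2 and 102.5 in uterus embryos, with a log2 difference of 0.11 (SE 0.19) for oviduct minus uterus, 0.40 with median scaling and -0.04 without oviduct replicate 1. The gap between the probes was 1.51 log2 units on oviduct replicate 2 and between -0.31 and 0.07 on the other arrays. A Mlxipl difference of the larger size thus rested on 1 probe on 1 array.

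Txn1, the cytosolic thioredoxin that reduces protein disulfides, had 1 probe above background of 3. It read 784.7 and 511.5 in oviduct embryos, 462.97 and 396.97 in ICI uterus embryos, and 238.4 and 379.5 in uterus embryos. In log2 units it had 9.01 and 8.84 in the oviduct pools, 8.73 and 8.67 in the ICI uterus pools and 7.63 and 8.48 in the uterus pools. Uterus replicate 1 was the lowest, and the uterus pools did not overlap with either other group. The log2 difference for oviduct minus uterus was 0.87 (SE 0.29, interval 0.18 to 1.56), 0.44 without uterus replicate 1 and 1.30 without uterus replicate 2. For oviduct minus ICI uterus it was 0.23 (SE 0.29), and 0.55 with median scaling. Uterus replicate 1, the lowest pool for Txn1, had the highest signal of Prap1, a secreted protein gene of uterine epithelium, at 4.52 and 4.66 log2 units in the oviduct pools, 4.56 and 5.08 in the ICI uterus pools, and 10.19 and 8.76 in the uterus pools. Of 7 uterine epithelium markers 4 and 5 were above background on the oviduct arrays, 3 and 6 on ICI uterus, and 6 and 6 on uterus arrays. Between the uterus pools Ltf was also higher in replicate 1 (7.32 and 6.46). Muc1 (7.02 and 7.26) and Wfdc2 (12.09 and 12.19) were lower there. For oviduct minus uterus 4 of 6 such markers in the fit lay below 0 and 2 above, from -4.89 (Prap1) to 0.69. The part of other cells in the Txn1 value was not tested.

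Read over the 9 probes, 5 were higher on both oviduct arrays than on both uterus arrays, 3 were lower and 1 overlapped. Over all 17677 probes the arrays of these groups did not overlap for 23.5% in the higher direction and for 23.8% in the lower. Against ICI uterus embryos 6 of the 9 were higher and 2 lower, where the shares over all probes were 27.3% and 26.1%. The median log2 difference of the 9 was 0.87 for oviduct minus uterus and 0.26 for oviduct minus ICI uterus, beside 0.00 and 0.01 over all probes. Past an adjusted p under 0.05 in limma lay 0.0509% of all probes in the first comparison (0.00566% higher and 0.0453% lower) and 0.339% in the second (0.119% higher and 0.221% lower). As Txnip and Arrdc4 chose the group, these counts are a description.

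**Figure D3:**
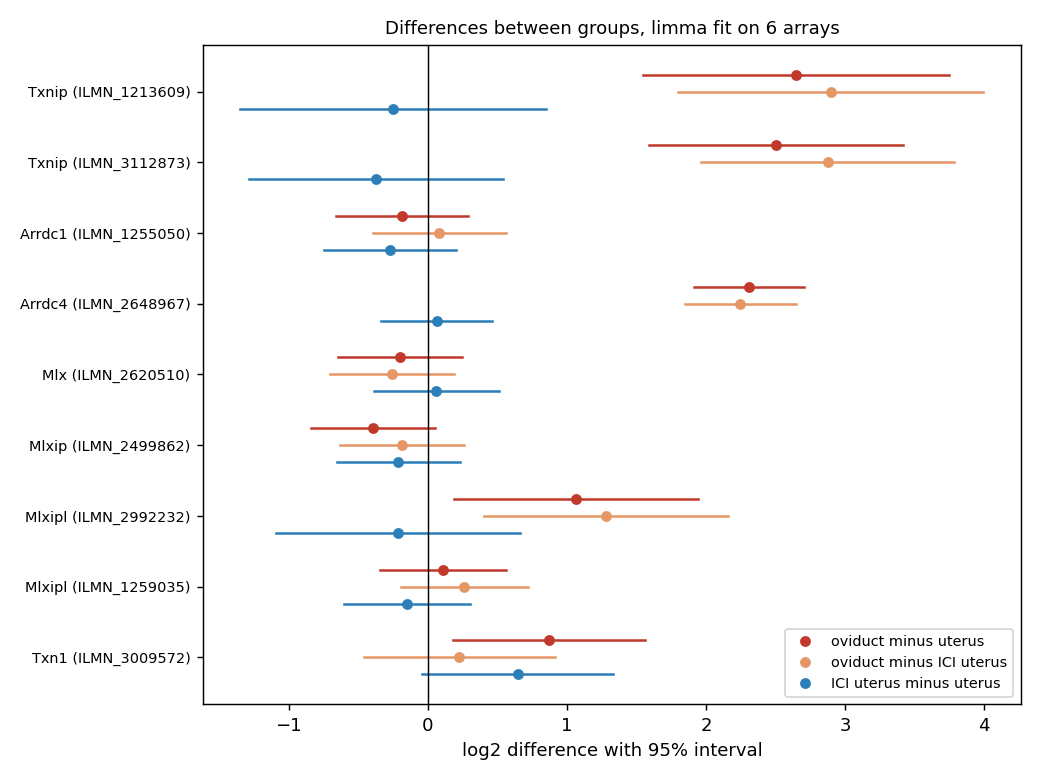
Log2 differences with 95% intervals from a limma fit on 6 arrays for the 9 probes, in 3 comparisons that share arrays. The Txnip and Arrdc4 differences in the oviduct comparisons, which the choice of genes fixed, lie between 2.25 and 2.89, and all ICI uterus minus uterus intervals include 0.

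The comparison that the choice of genes did not use was that of ICI treatment. None of the 9 probes passed in ICI uterus minus uterus by limma with Benjamini-Hochberg adjustment over 17677 probes, and 0 had an unadjusted p under 0.05. Over all probes 0% passed, and 1632 (9.23%) had an unadjusted p under 0.05. The member of smallest p was Txn1, higher in both ICI uterus pools, with a log2 difference of 0.65 (SE 0.29, interval -0.04 to 1.33, limma adjusted p = 0.555). Arrdc4, also higher in both, had 0.06 (SE 0.17, interval -0.33 to 0.46, limma adjusted p = 0.920).

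The Txnip arrays of the ICI uterus and uterus groups overlapped, and the log2 differences were -0.25 (SE 0.46, interval -1.35 to 0.85, limma adjusted p = 0.877) and -0.37 (SE 0.38, interval -1.28 to 0.54, limma adjusted p = 0.776) for its 2 probes. The first of these intervals does not exclude a change of 0.85 log2 units upward or 1.35 downward. Arrdc1 (-0.27, SE 0.20) and Mlxip (-0.21, SE 0.19) were lower in both ICI uterus pools, as was the Mlxipl probe ILMN_1259035 (-0.15, SE 0.19), while the other Mlxipl probe (-0.21, SE 0.37) and Mlx (0.06, SE 0.19) overlapped. Their limma adjusted p ran from 0.684 to 0.936. In all, 2 of the 9 probes were higher in both ICI uterus pools and 3 lower, beside 25.3% and 28.7% of all probes.

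Across the 6 arrays Arrdc4 and the 2 Txnip probes had r = 0.94 and 0.96, and Arrdc4 and the Mlxipl probe ILMN_2992232 had 0.83. Arrdc4 had r = 0.60 with Txn1, -0.74 with Mlx and -0.75 with Mlxip. These points are 2 arrays in each of 3 groups, so the values describe the group levels and the spread within groups together. The genes whose log2 values, centred on their mean, lay closest to those of Arrdc4 over the 6 arrays were Tnfsf13b, Dpep3, Tdrd12, Dhrs7 and Acer2, with root mean square differences of 0.23 to 0.31. Tnfsf13b, which encodes the B cell cytokine BAFF, had log2 signals of 7.58 and 8.06 in the oviduct pools, 5.53 and 5.19 in the ICI uterus pools and 5.55 and 5.15 in the uterus pools. Dpep3, a membrane dipeptidase gene, had log2 signals of 8.01 and 8.19 in the oviduct pools, 6.09 and 6.10 in the ICI uterus pools and 6.45 and 6.43 in the uterus pools.

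Closest to Txnip were Tnfsf13b, Emp1, Dcn, Gtsf1 and Dhrs7, at 0.53 to 0.62. Emp1, an epithelial membrane protein gene, and Dcn, which encodes the matrix proteoglycan decorin of stroma, were above background on the oviduct arrays and on none of the others. Dcn had log2 signals of 6.14 and 8.32 in the oviduct pools, 4.57 and 4.38 in the ICI uterus pools, and 4.70 and 4.75 in the uterus pools. Both were picked for their likeness to Txnip over these arrays. By Pearson's r in place of that distance, 0 of the 5 genes were shared for Txnip and 0 for Arrdc4, so these names depend on the measure of likeness.

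The wider pathway was read from lists of related genes, each gene at its brightest probe. No gene of the 7 lists passed an adjusted p under 0.05 in limma in any of the 3 comparisons. Among the known Mondo targets other than Txnip and Arrdc4, 10 of 19 listed genes were in the fit. The median log2 difference of those 10 was -0.21 for oviduct minus uterus, with 8 below 0 (5 with median scaling, which moves the median of all probes to 0.22). An unadjusted p under 0.05 was reached by 3 of them, all lower in oviduct embryos, against 18.5% of all probes (9.39% higher and 9.09% lower). For oviduct minus ICI uterus 2 of the 10 reached it, both lower, against 20.7% of all probes (10.2% higher and 10.5% lower). For ICI uterus minus uterus 0 of the 10 reached it, against 5.71% of all probes higher and 3.52% lower.

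Rgs16, a regulator of G protein signalling, had the smallest p of the Mondo targets. In log2 units it had 6.37 and 6.25 in the oviduct pools, 7.36 and 7.19 in the ICI uterus pools and 7.65 and 7.47 in the uterus pools. Both oviduct pools lay below all other pools, opposite to Txnip and Arrdc4. The log2 difference was -1.25 (SE 0.18, limma adjusted p = 0.067) for oviduct minus uterus and -0.96 (SE 0.18, limma adjusted p = 0.0747) for oviduct minus ICI uterus. Without oviduct replicate 1 or 2, with the array left assumed to vary like the others, the limma adjusted p for oviduct minus uterus was 0.0172 and 0.0446, in settings where 1629 and 542 of all 17677 probes passed. Pnpla3, a lipid droplet gene, overlapped between the oviduct and uterus pools. With all 6 arrays it lay 0.62 log2 units higher in oviduct embryos than in uterus embryos (limma adjusted p = 0.410). Its SD was 0.85 in the oviduct pools and 0.12 in the uterus pools. Without oviduct replicate 1 the value was 1.20, so its size depended on which oviduct array was kept. Bhlhe40, a transcriptional repressor of the circadian clock, had -0.53 (SE 0.19, limma adjusted p = 0.218) against uterus and -0.90 (SE 0.19, limma adjusted p = 0.0913) against ICI uterus. G6pc, the glucose-6-phosphatase gene, had -0.48 (SE 0.19) against uterus and was above background on 1 of 2 oviduct arrays.

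In ICI uterus minus uterus the Mondo targets had a median of -0.25, with 8 of 10 below 0 and 0 at an unadjusted p under 0.05. The smallest p there was that of Khk, the fructokinase gene (-0.63, SE 0.29, limma adjusted p = 0.557). Bhlhe40 had 0.38 (SE 0.19, limma adjusted p = 0.583), and G6pc, not above background in the ICI uterus pools, was at least 1.17-fold lower there (limma adjusted p = 0.585). The bound sets the uterus mean against the lowest signal above background on each ICI uterus array or the probe's own, whichever is higher.

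In the Max and Mlx network, whose members share partners with Mlx, 5 of 10 genes were in the fit. Their median for oviduct minus uterus was -0.22 (0.16 without oviduct replicate 1). At an unadjusted p under 0.05 lay 1 of 5, lower, against 9.39% of all probes higher and 9.09% lower. Myc, a growth-promoting factor gene, had -0.69 (SE 0.22, limma adjusted p = 0.179) against uterus and -1.25 (SE 0.22, limma adjusted p = 0.0692) against ICI uterus. It had log2 signals of 4.80 and 5.33 in the oviduct pools, where it was above background on replicate 2 only, 6.32 and 6.31 in the ICI uterus pools and 5.76 and 5.76 in the uterus pools. Myc was thus lowest in oviduct embryos and highest in ICI uterus embryos. Max, the partner of Myc, was not above background on oviduct replicate 1 either and had -0.22 (SE 0.39) for oviduct minus uterus and 0.69 (SE 0.39) for ICI uterus minus uterus, where Myc had 0.55 (SE 0.22, limma adjusted p = 0.539). The Myc antagonists Mxd1 (-0.38, SE 0.36, for oviduct minus uterus) and Mxd4 (0.47, SE 0.34, for oviduct minus ICI uterus) did not pass.

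The list of thioredoxin system genes, which also holds glutaredoxin genes and a splicing factor gene, had 16 of 20 genes in the fit. Its median was 0.01 in oviduct minus uterus and 0.01 in ICI uterus minus uterus. In oviduct minus uterus 8 were above 0 and 8 below, and 13 above 0 with median scaling. An unadjusted p under 0.05 was reached by 2 of the 16, both higher and both glutaredoxin genes, against 18.5% of all probes (9.39% higher and 9.09% lower). The glutaredoxin genes Glrx3 (0.80, SE 0.21, limma adjusted p = 0.139) and Glrx2 (0.84, SE 0.29, limma adjusted p = 0.204) had the smallest p against uterus. Both were higher on each oviduct array than on each uterus array, and without oviduct replicate 2 the limma adjusted p of Glrx2 was 0.0442, where 542 of all 17677 probes passed. Glrx5, a mitochondrial glutaredoxin gene, had 0.40 (SE 0.22, limma adjusted p = 0.384). In ICI uterus minus uterus the smallest p was that of Prdx3, the mitochondrial peroxiredoxin gene (0.55, SE 0.20, limma adjusted p = 0.535), followed by Txnl4a (0.54, SE 0.27), a thioredoxin-fold splicing factor gene, and Srxn1 (-0.44, SE 0.29), the sulfiredoxin gene.

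Of the glucose uptake and hexose phosphate genes, whose transporters Txnip restrains, 5 of 17 were in the fit, with a median of 0.05 in oviduct minus uterus. There 1 gene reached an unadjusted p under 0.05, higher, against 9.39% of all probes higher and 9.09% lower. That gene, Slc2a8, which encodes a glucose transporter of the blastocyst, had log2 signals of 8.97 and 8.86 in the oviduct pools, 7.82 and 7.86 in the ICI uterus pools, and 8.40 and 8.48 in the uterus pools. The 3 groups did not overlap. Its log2 difference was 0.47 (SE 0.17, limma adjusted p = 0.215) for oviduct minus uterus, 1.07 (SE 0.17, limma adjusted p = 0.065) for oviduct minus ICI uterus and -0.60 (SE 0.17, limma adjusted p = 0.535) for ICI uterus minus uterus. Without oviduct replicate 1 or 2 the limma adjusted p for oviduct minus ICI uterus was 0.0285 and 0.0169, in settings where 1075 and 2844 of all 17677 probes passed. Slc2a1, the transporter most often tied to Txnip, had 0.35 (SE 0.22, limma adjusted p = 0.444) against uterus, and Slc2a4, the insulin-responsive transporter gene, -0.09 (SE 0.19, limma adjusted p = 0.844). In ICI uterus minus uterus Slc2a1 had 0.38 (SE 0.22) and Slc2a4 0.33 (SE 0.19). Hk1, a hexokinase gene, had 0.23 (SE 0.30) for oviduct minus ICI uterus.

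The NEDD4-family ligases and their adaptors had 8 of 11 genes in the fit and a median of 0.06 for oviduct minus uterus. At an unadjusted p under 0.05 lay 0 of the 8, against 18.5% of all probes. Itch, the ligase that ubiquitinates Txnip, had 0.44 (SE 0.18, limma adjusted p = 0.276) and was higher in both oviduct pools. Ndfip1, an activator of these ligases, had -0.32 (SE 0.19, limma adjusted p = 0.404), and its relative Ndfip2 0.41 (SE 0.24, limma adjusted p = 0.408). In ICI uterus minus uterus the smallest p of this list belonged to Itch (0.38, SE 0.18), Ndfip1 (0.20, SE 0.19) and the ligase gene Nedd4 (0.29, SE 0.31). Nedd4l, another ligase gene, had -0.27 (SE 0.19) for oviduct minus ICI uterus.

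The kinases and factors known to act on Txnip had 13 of 18 genes in the fit and a median of -0.08 for oviduct minus uterus (0.11 with median scaling). At an unadjusted p under 0.05 lay 2 higher and 1 lower of 13, against 9.39% of all probes higher and 9.09% lower. Nfyb, a subunit of the factor that binds CCAAT boxes, had 0.54 (SE 0.18, limma adjusted p = 0.200), and Foxo3, a FOXO factor, 0.54 (SE 0.20, limma adjusted p = 0.225), while Prkag2, a subunit of the AMP-activated kinase, had -0.62 (SE 0.21, limma adjusted p = 0.190) and was not above background on oviduct replicate 2. In ICI uterus minus uterus 3 of the 13 had an unadjusted p under 0.05, against 9.23% of all probes. They were Nfya, another NF-Y subunit gene, at least 1.22-fold higher in ICI uterus pools and not above background in uterus pools (limma adjusted p = 0.535), Stk11, which encodes the kinase LKB1 (-0.49, SE 0.19, limma adjusted p = 0.535), and Prkag2 (-0.49, SE 0.21, limma adjusted p = 0.539). The other arrestin-fold genes had 6 of 8 in the fit and a median of -0.07 for oviduct minus uterus (0.16 with median scaling). At an unadjusted p under 0.05 lay 0 of the 6, against 18.5% of all probes, and the beta-arrestin gene Arrb2 had 0.37 (SE 0.17, limma adjusted p = 0.304). Of the others, the visual arrestin gene Sag had -0.13 (SE 0.21) and the retromer-like gene Vps26c -0.13 (SE 0.24). Against ICI uterus, 5 genes of the lists passed when oviduct replicate 1 was left out (Rgs16, Pnpla3, Myc, Mxd4 and Slc2a8), where 1075 of all 17677 probes passed. When oviduct replicate 2 was left out 9 passed (Rgs16, Bhlhe40, Elovl6, Myc, Max, Txnl4a, Glrx5, Glrx2 and Slc2a8), where 2844 of all 17677 did, and Myc and Max were not above background on the oviduct array that was left. Prkag2 without oviduct replicate 1 and Myc without oviduct replicate 2 also passed against uterus, in each case against an array on which the probe was not above background. No gene passed when an ICI uterus or uterus array was left out.

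**Figure D4:**
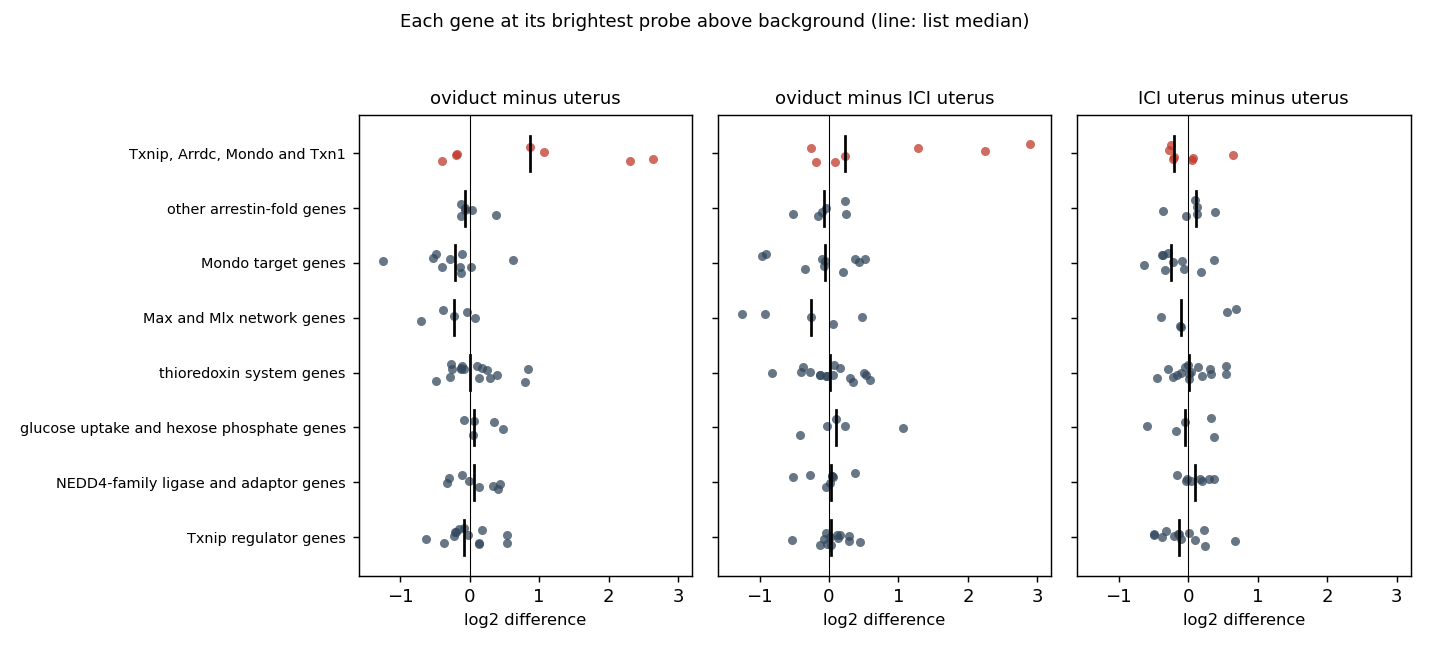
Log2 differences of single genes (dots, each at its brightest probe above background) in 3 comparisons, for the 7 genes of the Txnip, Arrdc, Mondo and Txn1 group and for 7 related lists, with the list median as a line. Txnip and Arrdc4 are the dots above 2 in both oviduct panels, and the medians of the 7 lists lie between -0.26 and 0.11.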

How the data were processed

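Embryo pool RNA was amplified and labelled with biotin for 1 array per pool, per the labels. The authors deposited raw bead signals as intensity values, with the standard error over beads as a signal, the count of beads (median 43 or 44) and a detection p-value, per the file headers. They also deposited log2 values, which equalled the log2 of the signal once a constant for the array, near its upper quartile, and another for the probe were taken off (residuals up to 0.00172). Array medians of these values were -0.11 and -0.07 (oviduct), -0.00 and 0.04 (ICI uterus) and 0.08 and 0.02 (uterus), and what the probe constant stands for is unknown. Scanner software was not given in the sources used here.

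Signals went through the neqc function (limma 3.58.1, R 4.3.3: normexp on detection p-values, offset 16, quantile, log2). A probe was kept if, in at least 1 group, its detection p-value lay under 0.05 in both pools. All 6 arrays entered 1 fit of 3 group means (lmFit, eBayes), two-sided, with Benjamini-Hochberg adjustment over 17677 probes and a threshold of 0.05. Precision is limited by the number of arrays. The pipeline was tested on simulated data. Gene names are those of the platform annotation, with 1 symbol for 34885 probes, several for 18 and none for 10378, and 34807 matched RefSeq genes by identifier.

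The members and lists were chosen with earlier results of these data known. All probes of the 9 genes are named, as are the 5 genes closest to Txnip and to Arrdc4 and up to 3 genes of smallest p per list and comparison. Lyz2, Pnpla3, Elovl6, Pdgfrb and the epithelium markers named beside Ovgp1 and Prap1 fall outside that rule and were named after their values were seen. Alternatives were median scaling, the authors' log2 values, a detection p-value under 0.01 or no filter, an offset of 50, array weights, a replicate block, fitting only the 2 groups compared, and leaving out each array. Python 3.11.15 with matplotlib 3.10.9 drew the figures. Protein sequences were not analysed here.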

Additional observations from a re-analysis of the deposited data

How the results depend on the processing

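With 2 pools per group, calls over all probes depended on the settings. The Txnip and Arrdc4 differences between oviduct embryos and either uterus group kept their sign in all 14 alternatives. These reuse the arrays on which the genes were chosen, so the kept sign is a description and no test. For oviduct minus uterus the log2 difference ran from 1.98 to 3.30 and from 2.04 to 2.89 for the Txnip probes and from 1.90 to 2.61 for Arrdc4. The lowest Arrdc4 value came from the authors' log2 values and the highest from median scaling. For probes changed, oviduct minus uterus, the count of 9 (1 higher, 8 lower) became 38 with median scaling (19 higher, 19 lower), 29 with an offset of 50, 1 with no detection filter, and 0 with the authors' deposited values, array weights or only the 2 groups compared. Leaving out 1 array gave 0 to 1629, with 1629 when oviduct replicate 1 and 542 when oviduct replicate 2 was the one left out, and 0 for any other array. For probes changed, oviduct minus ICI uterus, the count of 60 (21 higher, 39 lower) became 20 with the authors' deposited values (10 higher, 10 lower), 11 with array weights, 4 with no detection filter and 0 with only the 2 groups compared, and median scaling gave 37 higher and 19 lower. Leaving out 1 array gave 0 to 2844, with 1075 without oviduct replicate 1 and 2844 without oviduct replicate 2. The cause was not tested. Median scaling moved the median of all probes to 0.22 in the first of these comparisons and to 0.26 in the second.

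Same-numbered deviations correlated at 0.23 (oviduct and uterus), 0.13 (ICI uterus and uterus) and 0.07 (oviduct and ICI uterus), all above 0. Whether replicate numbers pair the pools cannot be told from these values. With the number as a replicate block 0 probes passed in oviduct minus uterus and 5 in oviduct minus ICI uterus. In ICI uterus minus uterus 0 probes and 0 members passed limma under all 14 alternatives, and the limma adjusted p of Txn1 ran from 0.200 to 1. There the log2 difference of the Txnip probe ILMN_1213609 ran from -0.90 to 0.41 when 1 array was left out, with 0.052 without ICI uterus replicate 2 and 0.41 without uterus replicate 2. For the Txnip probe ILMN_3112873 the range was -0.81 to 0.068, with 0.068 without ICI uterus replicate 2 and 0.017 without uterus replicate 2. For Mlx the range was -0.092 to 0.22, with -0.092 without uterus replicate 1. In the oviduct comparisons the sign turned under 1 of 14 alternatives for Arrdc1 (each comparison), Mlx and the Mlxipl probe ILMN_1259035 (oviduct minus uterus) and Mlxip (oviduct minus ICI uterus), at the values given beside each gene.

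List medians were also computed with median scaling and without each oviduct array, settings chosen after seeing the data. For oviduct minus uterus, the median of the NEDD4-family genes was -0.17 without oviduct replicate 1 and 0.18 without oviduct replicate 2, and that of the Max and Mlx network 0.16 and -0.44. The median of the Mondo targets stayed below 0 in these settings (-0.03 to -0.35). With the mean over probes the glucose list had a median of 0.21 for ICI uterus minus uterus, against -0.05. The genes closest to Txnip shared 2 of 5 names under median scaling and 1 under the deposited log2 values, and those closest to Arrdc4 shared 5 and 2.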
